A study of Mus musculus with 5 samples.

Results

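The genes of the sarcomeric myosin heavy chain family were followed in tibialis anterior (TA) muscle, a leg muscle of the mouse built mainly of fast fibers. The family was taken by gene symbol as Myh1, Myh2, Myh3, Myh4, Myh6, Myh7, Myh7b, Myh8, and Myh13, and all 9 had a row among the 17015 genes of the table. Myosin heavy chain is the motor of the thick filament: its head binds actin, splits ATP, and pulls, and its tail packs into the filament. Each isoform has its own speed, so the isoform that a fiber makes largely sets how fast the fiber contracts and how it is typed. In adult mouse limb muscle the fast types 2B, 2X, and 2A are made from Myh4, Myh1, and Myh2 and the slow type from Myh7, which also serves the heart together with Myh6. Myh3 (embryonic) and Myh8 (perinatal) are used in development and regeneration, Myh13 mainly in eye and laryngeal muscles, and Myh7b is an ancient slow-type relative.

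The libraries came from sedentary male mice aged 8 weeks and were split into a WT control group (n = 3) and a group labelled skmNrip1-/- (n = 2). Both groups carried floxed Nrip1, from a C57BL/6J line crossed to Cre mice of the C57BL/6JN strain, and the controls were littermates without Cre. The skmNrip1-/- label stands for a deletion driven by Cre from the myogenin promoter, which is active in skeletal muscle cells and leaves the other cells of the muscle with the gene. Nrip1 encodes RIP140, a nuclear receptor corepressor, and the comparison asks what differs in muscle RNA without it. The values are FPKM, fragments per kilobase of transcript, scaled between libraries as described in the processing, and only these 5 libraries were analysed here.

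The targeted gene went against the label. Nrip1 was at 4.64, 7.69, and 6.55 FPKM in WT control replicates 1 to 3 but at 25.3 FPKM in replicate 1 labelled skmNrip1-/- and 22.5 FPKM in replicate 2, a log2 difference of 1.94 (limma, adjusted p = 0.0261). The Cre removes a single exon, which holds both the start and the stop codon, and a value per gene does not separate the exons of Nrip1, so the table does not check the deletion. Every direction given here therefore rests on the labels. Library totals ran from 969144 to 1288038 FPKM, and 233 to 295 genes were listed at 0 in a library. In genes with a single transcript, 99.1% to 100% of low values fell within 0.15 of a whole multiple of a common step. The step corresponds to a divisor of about 40500000 to 54600000 fragments per library. As the values were already scaled between libraries, this divisor need not equal the total of fragments sequenced. Genes of the mitochondrial genome held 47.2%, 50.7%, and 45.4% of the FPKM sum in the WT controls and 58.6% and 60.9% in the libraries labelled skmNrip1-/-. Nothing in the labels says more of the replicates than their number, so p-values measure the spread between these libraries. In whole muscle, fewer fibers of a type and less RNA per fiber cannot be told apart.

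In GRCm38, with GENCODE M21 gene models, 6 of the 9 genes lay side by side on the plus strand of chromosome 11 within 293287 bp (67078300 to 67371586). The order along the chromosome was Myh3, Myh2, Myh1, Myh4, Myh8, and Myh13. The closest neighbors were Myh2 (67171027 to 67197517) and Myh1 (67200052 to 67224575), 2534 bp apart, followed by Myh4 (67238029 to 67260446) at a gap of 13453 bp, whereas Myh3 stood 68735 bp before Myh2. Myh6 (54941921 to 54966927) and Myh7 (54970684 to 54994626) were neighbors on the minus strand of chromosome 14, and Myh7b (155611212 to 155634307) was alone on chromosome 2. The longest coding transcripts were alike in size, from 6016 to 6230 nt in 39 to 42 exons, so FPKM could be compared between members with little effect of length.

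The sequences just upstream of the adult fast genes are shown because the 3 most abundant members shared a stretch there. The 250 bases before the RefSeq start (GRCm38.p6) are given 5′ to 3′, with capitals on a 14-base run shared by all 4 genes and on each TATAAA of the strand shown.
Myh4, chr11:67237562-67237811, plus strand: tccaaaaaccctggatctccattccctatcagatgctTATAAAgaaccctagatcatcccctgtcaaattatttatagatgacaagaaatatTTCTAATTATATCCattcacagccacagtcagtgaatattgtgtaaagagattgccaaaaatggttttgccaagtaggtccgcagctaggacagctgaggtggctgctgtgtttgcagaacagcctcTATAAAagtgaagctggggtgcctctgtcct
Myh1, chr11:67199852-67200101, plus strand: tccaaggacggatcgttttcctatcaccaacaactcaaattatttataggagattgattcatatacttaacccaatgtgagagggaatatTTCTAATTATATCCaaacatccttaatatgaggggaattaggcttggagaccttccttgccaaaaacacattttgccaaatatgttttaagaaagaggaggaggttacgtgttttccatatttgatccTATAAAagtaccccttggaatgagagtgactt
Myh2, chr11:67170777-67171026, plus strand: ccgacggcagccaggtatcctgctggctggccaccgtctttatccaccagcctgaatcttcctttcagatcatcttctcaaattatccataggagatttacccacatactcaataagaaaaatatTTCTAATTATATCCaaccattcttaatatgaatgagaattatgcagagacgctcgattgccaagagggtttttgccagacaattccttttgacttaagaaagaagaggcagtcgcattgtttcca
Myh8, chr11:67276874-67277123, plus strand: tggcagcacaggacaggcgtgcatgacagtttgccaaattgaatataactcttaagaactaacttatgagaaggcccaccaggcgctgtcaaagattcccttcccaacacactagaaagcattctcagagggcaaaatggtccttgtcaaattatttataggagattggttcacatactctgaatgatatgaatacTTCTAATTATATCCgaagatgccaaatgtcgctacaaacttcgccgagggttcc
The longest run common to Myh4, Myh1, and Myh2 was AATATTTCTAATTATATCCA, 20 bases, and with both strands searched it was in 3 of 32851 promoter windows of this length (0.00913%), those of these 3 genes. The 14-base run inside it, TTCTAATTATATCC, was in 4 windows (0.0122%), with Myh8 as the only addition among the windows searched. Counted from the start, with -1 as the base before it, the run began at -158 in Myh4, -160 in Myh1, -125 in Myh2, and -54 in Myh8. TATAAA, searched on both strands, was in 12.4% of windows. On the strand of the gene it began at -213 and -31 in Myh4, -32 in Myh1, and -29 in Myh3. In Myh2 it began at base 11 after the RefSeq start, outside the window. The RefSeq and GENCODE starts differed for Myh4 and Myh1 among the 4 genes shown, so distances hold for the RefSeq start alone. The E-box CANNTG, the core bound by MyoD and its relatives, was in 66.2% of windows and in those of 7 of the 9 genes, with Myh1 and Myh2 as the exceptions in this window. These are matches of letters and no measure of binding.

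Likeness between the members limits how surely fragments can be assigned to each. The longest coding transcripts of Myh4 and Myh1 were 89.6% identical over the aligned bases, those of Myh1 and Myh2 90.2%, and those of Myh7 and Myh6 90.5%. Of the 31-base words in the transcript, 39.7% for Myh1, 38.5% for Myh2, and 30.4% for Myh4 also occurred in another member. Myh7 and Myh6 shared mostly with each other (31.7% and 32.3%), Myh8 shared 19.5% with Myh2, and Myh7b shared 0.179% with any member. Salmon divides ambiguous fragments between transcripts by a model, so values of all members but Myh7b are uncertain by an amount that was not measured. Without strand in the library kit, antisense RNA would count toward a member as well.

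**Figure D1:**
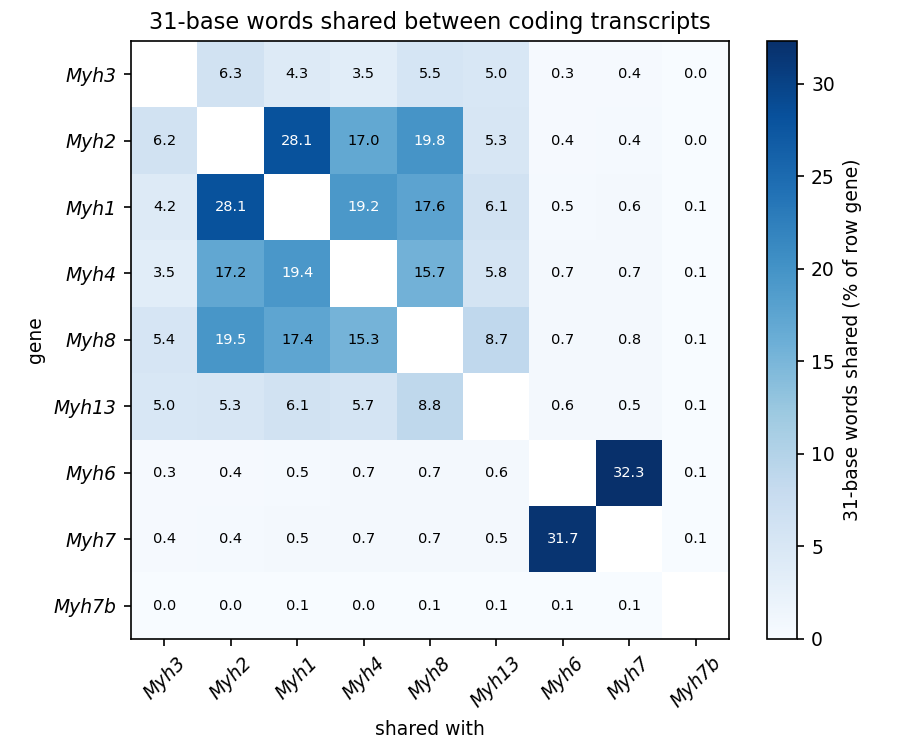
Percentage of the 31-base words of each gene's longest coding transcript (rows, 9 genes) that also occur in another member (columns); color and printed value give the percentage of the row gene's words. The chromosome 11 genes form a block with up to 28.1% between Myh1 and Myh2, Myh6 and Myh7 form a pair at 31.7% and 32.3%, and Myh7b shares almost nothing.

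Across all 5 libraries the family was led by Myh4, then Myh1, then Myh2, and the other 6 members were far lower, at 2.71 FPKM or less. Mean FPKM was 2.10 times as high for Myh4 as for Myh1 and 7.16 times as high for Myh1 as for Myh2. This order was kept in 5 of 5 libraries with no overlap of ranges. Between Myh2 and the next member, Myh6, lay a 276-fold step. Below that step every neighboring pair in the order Myh6, Myh13, Myh8, Myh7b, Myh7, Myh3 overlapped in range, although Myh13 was above Myh8 in 5 of 5 libraries. Between genes further apart in the order, the lowest values of Myh13 (1.19 FPKM) and Myh8 (0.953 FPKM) lay above the highest of Myh3 (0.868 FPKM). Ranked by FPKM within a library, Myh4 stood at place 22 to 27, Myh1 at 31 to 37, and Myh2 at 62 to 337, against 8207 to 12708 for the low members.

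**Figure D2:**
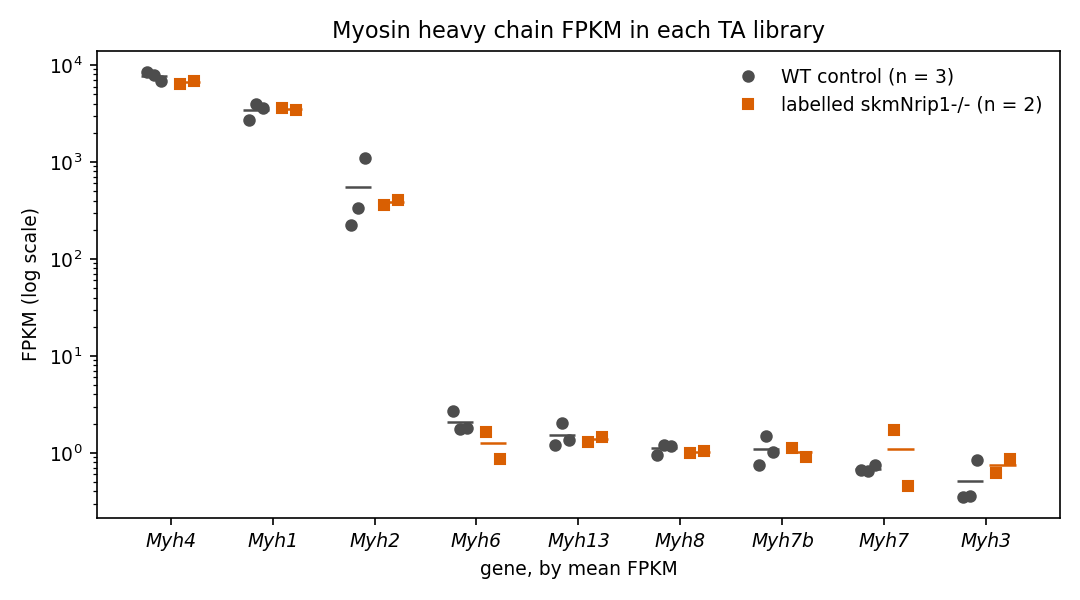
FPKM (log scale) of the 9 myosin heavy chain genes, ordered by mean; circles are WT control libraries (n = 3), squares libraries labelled skmNrip1-/- (n = 2), and lines group means. Myh4, Myh1, and Myh2 lie above 223 FPKM in every library and the other 6 genes at 2.71 FPKM or less, and only for Myh6 are the 2 groups apart.

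None of the 9 members was called between the groups. All 9 passed the minimum mean of 0.5 FPKM and were tested among 12148 genes with limma on log2(FPKM + 0.1), and a gene was called at a Benjamini-Hochberg adjusted p up to 0.05 with a change of 1.2-fold or more. Of all genes tested, 0.37% were called higher (45) and 0.0823% lower (10) in the libraries labelled skmNrip1-/-. Among the members 0 of 9 were called in either direction with limma, and 0 of 9 had an unadjusted p under 0.05. Of the 12148 genes tested, 798 were higher and 647 lower at that unadjusted limma threshold. Fitted log2 differences were above 0 for 3 members and below 0 for 6, with a median of -0.10 beside -0.00 for all genes. Members with no overlap between groups numbered 0 above and 1 below, Myh6, where 15.8% and 14.4% of all genes tested were apart in these directions. When the values were rescaled to TPM, which counts the mitochondrial transcripts in each library's total, the median of all genes moved to -0.29 and the calls to 30 higher and 63 lower. In that scaling Myh4 had an unadjusted p of 0.00493 and Myh6 of 0.00913, with limma adjusted p of 0.0799 and 0.0908. Relative to the median of all genes, however, the TPM differences were -0.22 for Myh4 and -0.71 for Myh6, close to those without rescaling.

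**Figure D3:**
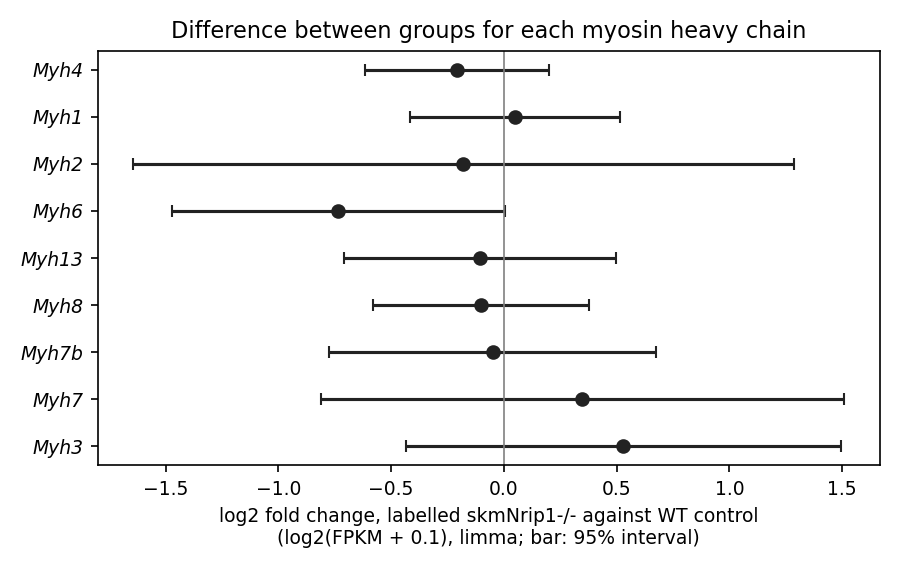
Fitted log2 fold change (limma on log2(FPKM + 0.1); 2 libraries labelled skmNrip1-/- against 3 WT control libraries) of the 9 members with its 95% interval, ordered by mean FPKM. All 9 intervals include 0; Myh2 has the widest of the abundant members and that of Myh6 ends just above 0.

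Myh4, the 2B heavy chain of the fastest fibers, was at 8478, 7851, and 6839 FPKM in the WT controls and at 6416 and 6910 FPKM in the libraries labelled skmNrip1-/-. WT control replicate 3 fell between the libraries of the other group, so the groups overlapped. The log2 difference was -0.21 ± 0.17 (SE; limma, adjusted p = 0.706), with a 95% interval of 0.653- to 1.15-fold.

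Myh1, the 2X heavy chain, was at 2736, 3987, and 3619 FPKM in the WT controls and at 3614 and 3435 FPKM in the libraries labelled skmNrip1-/-. The latter sat inside the WT control range, whose low end was replicate 1. The log2 difference was 0.05 ± 0.19 (SE; limma, adjusted p = 0.954), with an interval of 0.750- to 1.43-fold. Without WT control replicate 1 the sign turned, to -0.11, and on the TPM scale it was -0.25, or 0.04 relative to the median of all genes.

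Myh2, the heavy chain of the oxidative 2A fibers, was at 223, 333, and 1102 FPKM in the WT controls and at 363 and 406 FPKM in the libraries labelled skmNrip1-/-. WT control replicate 3 stood far above the rest, and the WT controls spanned 4.93-fold against 1.12-fold for the other group. On the log2 scale the SD over the WT controls was 1.198, larger than for 99.1% of the genes tested, against 0.16 for Myh4 and 0.28 for Myh1. The log2 difference was -0.18 ± 0.61 (SE; limma, adjusted p = 0.943), with an interval of 0.320- to 2.44-fold. Without WT control replicate 3 the difference turned to 0.49 (limma, adjusted p = 0.617).

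The isoform shares, which do not depend on the scaling between libraries, varied as much within the WT controls as between groups. Myh4 took 74.1%, 64.5%, and 59.1% of the family FPKM sum in the WT controls and 61.7% and 64.2% in the libraries labelled skmNrip1-/-. The mean share was 65.9% ± 7.58 (SD, n = 3) against 63.0% ± 1.80 (SD, n = 2). The difference of -2.93 percentage points had an exact permutation p of 0.8 (two-sided). Myh1 took 23.9%, 32.7%, and 31.3% against 34.8% and 31.9%, a difference of 4.03 percentage points (exact permutation p = 0.4). Myh2 took 1.95%, 2.74%, and 9.53% against 3.49% and 3.78%, a difference of -1.11 percentage points (exact permutation p = 1.0). With 3 against 2 libraries, 0.2 was the smallest two-sided p these tests could give. The signs turned without a single library: without WT control replicate 1 the Myh4 difference was 1.17, and without WT control replicate 3 the Myh2 difference was 1.29 percentage points. The 6 low members together held 0.0519% to 0.0710% of the family sum.

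**Figure D4:**
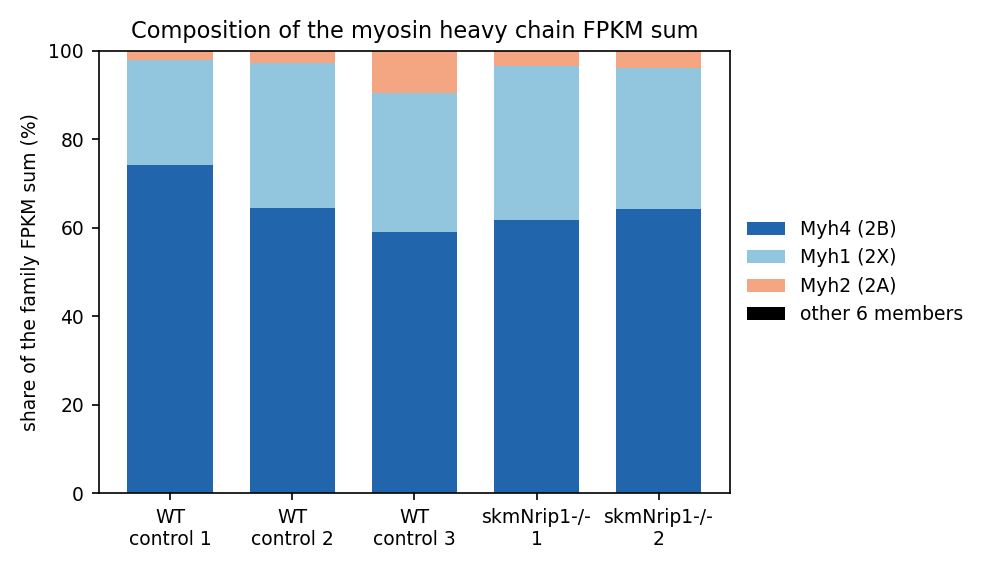
Share (%) of each isoform in the summed FPKM of the 9 members, stacked from 0 to 100 for each of the 5 libraries; the other 6 members together (at most 0.0710%) are too thin to see. Myh4 fills 59.1% to 74.1% of the bars, and the Myh2 segment of WT control replicate 3, 9.53%, is the tallest of the 5.

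Ratios between the fast isoforms did not separate the groups either. The ratio of Myh4 to Myh1 was 3.10, 1.97, and 1.89 in the WT controls and 1.78 and 2.01 in the libraries labelled skmNrip1-/-, so WT control replicate 1 was the library that stood apart. The mean log2 ratio differed by -0.26 (two-sided exact permutation p = 0.6). The ratio of Myh1 to Myh2 was 12.2, 12.0, and 3.28 against 9.96 and 8.46, with WT control replicate 3 lowest. The mean log2 ratio differed by 0.23 (two-sided exact permutation p = 1.0), and by -0.40 without that replicate.

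The summed FPKM of the family was 11443, 12179, and 11567 in the WT controls and 10400 and 10757 in the libraries labelled skmNrip1-/-. Both of the latter lay below every WT control, at 0.902 of their mean, and the two-sided exact permutation p was 0.2, the smallest possible. As a share of each library's FPKM sum the family took 0.9997%, 1.18%, and 1.19% against 0.807% and 0.836%. When the genes of the mitochondrial genome were left out of that sum, the shares were 1.89%, 2.40%, and 2.18% against 1.95% and 2.14%, and the groups overlapped.

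Among the slow and cardiac members, Myh6 was the only member of the family whose groups were apart by FPKM. Myh6, the fast cardiac heavy chain, was at 2.71, 1.78, and 1.80 FPKM in the WT controls and at 1.64 and 0.866 FPKM in the libraries labelled skmNrip1-/-. The gap between the groups was small beside the distance between the libraries labelled skmNrip1-/-, whose replicate 2 was lowest. The log2 difference was -0.73 ± 0.31 (SE; limma, adjusted p = 0.423), with an interval of 0.360- to 1.003-fold. It was between -1.16 and -0.31 when a library was left out. As a share of the family sum the Myh6 groups overlapped, at 0.0237%, 0.0146%, and 0.0156% against 0.0157% and 0.00806% (two-sided exact permutation p = 0.6).

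Myh7, the slow skeletal and cardiac heavy chain, was at 0.659, 0.648, and 0.751 FPKM in the WT controls and at 1.72 and 0.449 FPKM in the libraries labelled skmNrip1-/-. The WT controls lay close together, with a log2 SD of 0.10, and the other group held both the highest and the lowest value. The log2 difference was 0.35 ± 0.49 (SE; limma, adjusted p = 0.841), and it turned to -0.51 without replicate 1 labelled skmNrip1-/-. The ratio of Myh7 to Myh6 was 0.243, 0.365, and 0.417 in the WT controls and 1.05 and 0.519 in the libraries labelled skmNrip1-/-. The groups did not overlap, and the two-sided exact permutation p was 0.2, the smallest possible. Of 4 ratios tested between members, the others had overlapping groups. These 2 genes shared 31.7% and 32.3% of their 31-base words, so how fragments were divided between them is uncertain. Myh7b, whose RNA gives little protein in mammalian limb muscle, was at 0.746, 1.49, and 1.01 FPKM against 1.11 and 0.906 FPKM. Its groups overlapped, with a log2 difference of -0.05 ± 0.30 (SE; limma, adjusted p = 0.972).

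Heart markers were checked beside these genes, since Myh6 and Myh7 are also cardiac. A row was found for 4 of the 7 listed. Their summed level was 3.02 to 3.59 FPKM in the WT controls and 2.32 and 3.51 FPKM in the libraries labelled skmNrip1-/-, most of it Tnnt2, which developing skeletal muscle also makes. Ryr2, the cardiac calcium release channel, stayed at or under 0.116 FPKM and Mybpc3, the cardiac binding protein C, at or under 0.0583 FPKM, with 2 libraries listed at 0. Tnni3, cardiac troponin I, was at 0.932, 0.113, and 0.0344 FPKM in the WT controls and at 0.169 and 0.212 FPKM in the other group. It was highest in WT control replicate 1, as Myh6 was, but no other heart marker with a row was. Tnnt2 and Mybpc3 were highest in replicate 1 labelled skmNrip1-/-, and Ryr2 was highest in WT control replicate 2. The part of cardiac RNA in the Myh6 values was not tested.

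The developmental and extraocular members were low in every library. Myh3 was at 0.353, 0.356, and 0.835 FPKM in the WT controls and at 0.619 and 0.868 FPKM in the libraries labelled skmNrip1-/-. WT control replicate 3 fell between the libraries of the other group, and the log2 difference was 0.53 ± 0.40 (SE; limma, adjusted p = 0.683). Myh8 was at 0.953, 1.19, and 1.18 FPKM against 1.01 and 1.04 FPKM, inside the WT control range, with a log2 difference of -0.10 ± 0.20 (SE; limma, adjusted p = 0.894). Myh13 was at 1.19, 2.04, and 1.34 FPKM against 1.29 and 1.46 FPKM, again inside that range, with a log2 difference of -0.11 ± 0.25 (SE; limma, adjusted p = 0.912).

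By annotated length, the 6 low members stood for about 100 to 778 fragments per library each, against 1478215 to 2441394 for Myh4. How many fragments of the abundant members the model may have assigned to the low ones was not tested. Markers of satellite and regenerating cells were checked because Myh3 and Myh8 are used in regeneration. These markers summed to 24.5 to 31.2 FPKM in the WT controls and to 22.8 and 39.3 FPKM in the libraries labelled skmNrip1-/-. Of the 8 with a row, 6 were tested, 1 above 0 and 5 below, with a median log2 difference of -0.16, and limma called 0. The groups were apart below for 3 of 6 (Myf5, Myog, and Cdh15) and above for 0. Of all genes tested, 14.4% and 15.8% were apart in these directions. At an unadjusted limma p under 0.05, 1 was higher (Ncam1, at 1.75) and 1 lower (Cdh15, at -0.56), beside 798 and 647 of the 12148 genes tested. Pax7, which defines satellite cells and was too low to be tested, was at 0.383 to 0.386 FPKM in the WT controls and at 0.237 and 0.314 FPKM in the other group. Chrng, the fetal acetylcholine receptor subunit and also too low to be tested, was at 0.0410, 0.0298, and 0.0163 FPKM against 0.193 and 0.301 FPKM, with its groups apart above. The adhesion molecule Ncam1, noted after its values were seen, was at 4.599, 1.33, and 1.90 FPKM against 4.35 and 14.2 FPKM, so that the high sum came from replicate 2 labelled skmNrip1-/-. The part of these cells in the Myh3 values was not tested.

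Among the thin-filament, light chain, and calcium-handling genes that accompany fast myosin, none passed the test. All 12 fast partners had fitted log2 differences below 0, with a median of -0.35 beside -0.00 for all genes. With limma 0 of 12 were called and 3 were lower at an unadjusted p under 0.05, beside 647 of the 12148 genes tested. In 8 of 12 the groups did not overlap, where 14.4% of all genes were apart in this direction. Actn3, the Z-disc α-actinin of fast fibers, was lowest, at 3558, 2712, and 2701 FPKM in the WT controls and 1739 and 1744 FPKM in the libraries labelled skmNrip1-/-. Its log2 difference was -0.77 ± 0.17 (SE; limma, adjusted p = 0.168). On the TPM scale it was called, at -1.07, or -0.78 relative to the median of all genes (limma, adjusted p = 0.0199). Tnnt3, fast troponin T, was nearest to 0 at -0.17, with 26288, 17820, and 19135 FPKM against 18992 and 17984 FPKM. WT control replicate 1 was the highest library for every one of the 12. Without it the median was -0.17 and 10 of 12 were below 0, and over TPM outside the mitochondrial genome, where the median of all genes was 0.07, it was -0.28 with 12 of 12 below 0.

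The slow partners went apart from each other. Of 11 tested, 5 lay above 0 and 6 below, the median was -0.01, and limma called 0. At an unadjusted limma p under 0.05, 1 was higher and 2 lower, beside 798 and 647 of the 12148 genes tested. The groups were apart above for 1 of 11 and below for 3, where 15.8% and 14.4% of all genes tested were apart. Myl2, the slow regulatory light chain, was at 2.03, 1.85, and 9.68 FPKM in the WT controls and at 42.1 and 33.6 FPKM in the libraries labelled skmNrip1-/-. Its log2 difference of 3.46 ± 0.67 (SE) had a limma adjusted p of 0.127. Without WT control replicate 3 the difference was 4.21 (limma, adjusted p = 0.00366), and Myl2 was then called. Myl3, the slow essential light chain, was at 89.6, 124, and 285 FPKM against 54.1 and 71.3 FPKM, a log2 difference of -1.24 ± 0.45 (SE; limma, adjusted p = 0.359). The 2 slow light chains thus had differences of opposite sign, beside a Myh7 that overlapped. WT control replicate 3, highest for Myh2 among all 5 libraries, was highest for Myl3 as well, and highest for Myl2 among the WT controls. Myoz2, a Z-disc protein of slow fibers noted after its values were seen, had its highest value there too, at 61.3, 48.0, and 135 FPKM against 39.8 and 34.7 FPKM. The rest of the list was divided. Tnni1, Tpm3, and Myom3 were highest in that library as well, whereas Myl6b, Tnnt1, Tnnc1, Atp2a2, and Casq2 were highest in another.

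**Figure D5:**
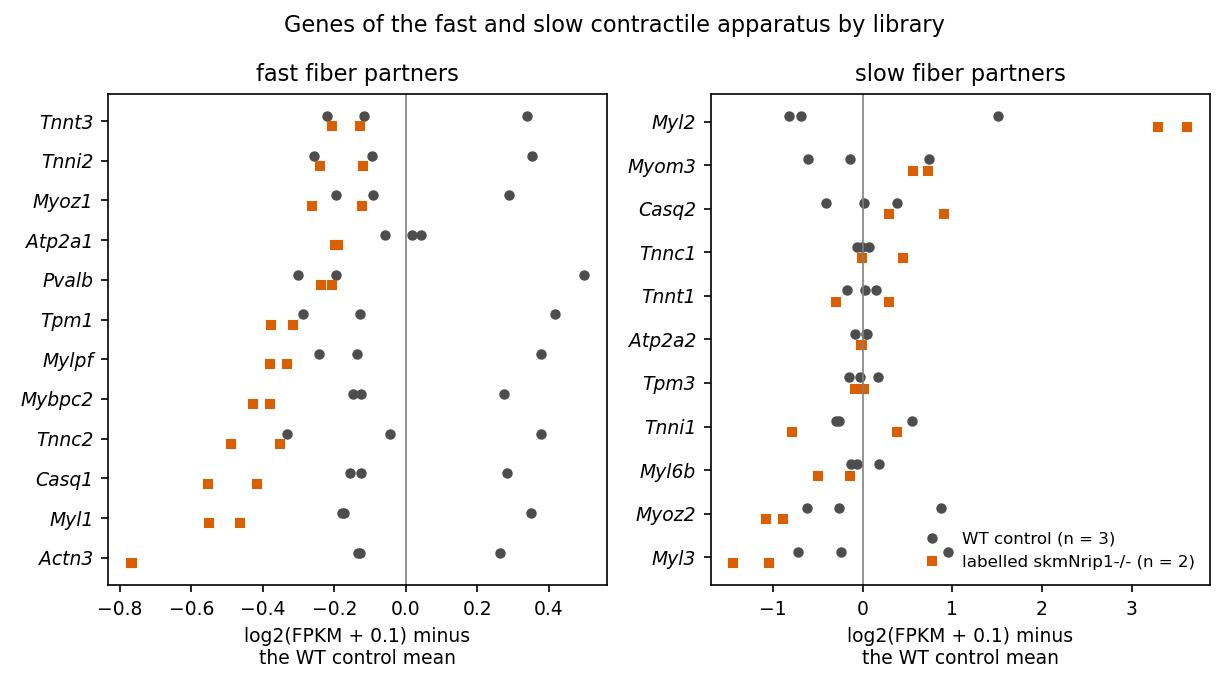
log2(FPKM + 0.1) of each partner gene minus its WT control mean (x axis, with its own range in each panel) for 12 fast and 11 slow fiber genes; circles are WT control libraries (n = 3) and squares libraries labelled skmNrip1-/- (n = 2). In the fast panel the rightmost circle is WT control replicate 1 for every gene; in the slow panel Myl2 lies far to the right and Myl3 and Myoz2 to the left in the libraries labelled skmNrip1-/-.

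Genes that build the thick filament around myosin or fold its head gave no call. Of 13 listed, 12 were tested, with a median log2 difference of -0.11, 3 above 0 and 9 below, and limma called 0. At an unadjusted limma p under 0.05, 2 were lower, beside 647 of the 12148 genes tested. The groups were apart below for 5 of 12 and above for 1, where 14.4% and 15.8% of all genes tested were apart in these directions. Trim63, the ubiquitin ligase MuRF1 that marks myosin for breakdown, was lowest, at 138, 130, and 139 FPKM in the WT controls and 103 and 99.6 FPKM in the libraries labelled skmNrip1-/-. Its log2 difference was -0.42 ± 0.10 (SE; limma, adjusted p = 0.191). Mybpc1, slow myosin binding protein C, was highest at 0.20, with 615, 948, and 873 FPKM against 879 and 957 FPKM and overlapping groups. Named after their values were seen, the M-band genes Myom2 and Myom1 differed by -0.39 and -0.34 and the myosin chaperone Unc45b by -0.20, all with groups apart, and the methyltransferase Smyd1, needed for myosin assembly, by 0.15 with its groups apart above.

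Regulators known to act on myosin genes were divided as well. Of 24 listed, 23 were tested, 13 above 0 and 10 below with a median of 0.07, and limma called 0. At an unadjusted limma p under 0.05, 3 were higher and 2 lower, beside 798 and 647 of the 12148 genes tested. Mafa, a transcription factor that promotes Myh4 expression in fast fibers, was lowest in the list, at 28.2, 17.2, and 26.8 FPKM in the WT controls and 13.1 and 11.7 FPKM in the libraries labelled skmNrip1-/-, a log2 difference of -0.92 ± 0.22 (SE; limma, adjusted p = 0.197). Without WT control replicate 2 it was -1.15 (limma, adjusted p = 0.0354), and Mafa was then called. In no other setting did a regulator pass. Over the list the groups were apart above for 6 of 23 and below for 4, where 15.8% and 14.4% of all genes tested were apart. The groups were apart below for Mafa while those of Myh4 overlapped.

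The genes whose library profiles lay closest to the fast myosins were found by the root mean square (RMS) difference of centered log2(FPKM + 0.1) over the 5 libraries. For Myh4 these were Esam, Sppl3, and Cplane1, at RMS differences of 0.025 to 0.029. For Myh1 they were Add1, Nr2c2, and Arnt, at 0.020 to 0.030. Myh2 had no gene so near: Comp, Kit, and Alpl were closest at 0.22 to 0.30. Comp, a cartilage and tendon matrix protein, was at 2.77, 3.12, and 10.1 FPKM in the WT controls and at 3.50 and 5.30 FPKM in the other group. Kit was at 0.345, 0.374, and 1.30 FPKM against 0.342 and 0.463 FPKM, and Alpl, alkaline phosphatase, at 10.8, 12.1, and 28.6 FPKM against 12.6 and 12.1 FPKM. As for Myh2, WT control replicate 3 was the highest library for all 3. This follows from their choice by likeness to the Myh2 profile and is no separate observation.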

How the data were processed

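RNA from TA muscle of 5 mice aged 8 weeks was compared, 3 WT control libraries and 2 labelled skmNrip1-/-, grouped by GEO title. Per the labels, total RNA was prepared with DNase and an unstranded kit, and the processing notes name Salmon 1.10.2, tximport, DESeq2 1.44.0, and mm10. The authors deposited FPKM per gene, without counts, for 17015 genes; the deposited table also holds columns of their own log2 fold changes and adjusted p-values, which were not used. How FPKM was computed is not given in the sources used here; the median-of-ratios factors of the 5 libraries were equal, so the values were already scaled that way.

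Genes that averaged 0.5 FPKM or more (12148) were tested on log2(FPKM + 0.1) with limma 3.58.1 (R 4.3.3; eBayes with intensity trend, Benjamini-Hochberg adjustment). On this scale changes of low genes are understated. Calls needed an adjusted p of 0.05 or less and 1.2-fold. Shares and ratios were tested by two-sided exact permutation over libraries (scipy 1.17.1). The number of fragments behind a value was inferred from the step between low FPKM values, since totals of reads are not in the table. Of the gene IDs, 16996 were in GENCODE M21; promoters came from RefSeq on GRCm38.p6, the patch release of the same build.

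The members and the gene lists (partners of fast and slow fibers, thick filament, other class II myosins, regulators, and cell type markers) were chosen with earlier results of these data known. Named genes were all 9 members, the highest and lowest fitted gene of each related list with every called gene, and the 3 genes most like each of Myh4, Myh1, and Myh2; other related genes and markers named in the text were chosen after their values were seen, and the highest regulator is not reported here. Alternatives were other pseudocounts, minimums, scalings, variance settings, a replicate block, and leaving out each library.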

Additional observations from a re-analysis of the deposited data

How the results depend on the processing

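Over 133 fits of the 9 members under alternatives (pseudocount 1 or 0.01, no minimum or 1 FPKM, 3 scalings, eBayes without trend or robust, replicate block, each library left out), 0 gave a limma call at adjusted p of 0.05 or less, and 9 had the opposite sign. Of the 3 scalings, median of ratios repeated the main fit for all 9 members, since the values were already scaled that way, and could not differ. Rescaling to TPM gave -0.25 for Myh1, and TPM outside the mitochondrial genome 0.020 for Myh7b. Leaving out a library in turn moved Myh1 between -0.11 and 0.16, Myh2 between -0.66 and 0.49, Myh7 between -0.51 and 1.21, Myh7b between -0.27 and 0.19, and Myh13 between -0.25 and 0.11 on the log2 scale. The share of Myh4 differed by -6.31 to 1.17 percentage points, that of Myh2 by -2.50 to 1.29, and the log2 ratio of Myh1 to Myh2 by -0.40 to 0.55 when a library was left out. Genes called numbered 6 to 55 higher and 3 to 16 lower without a library (6 higher without skmNrip1-/- replicate 2, 8 without skmNrip1-/- replicate 1, 19 without WT control replicate 3, and 27 without WT control replicate 1), 22 and 3 with eBayes without trend, and 30 and 63 after rescaling to TPM. List medians after rescaling to TPM were -0.31 for the slow partners, -0.41 for the thick filament genes, -0.38 for the other class II myosins, and -0.23 for the regulators. Without a library in turn, the slow partners ranged from -0.084 to 0.29 and the thick filament genes from -0.16 to -0.11. The replicate numbers shared by the groups are not stated to pair animals, and deviations of same-numbered libraries correlated at 0.065 and 0.095 across 12148 genes. In a group of 2 libraries the deviations from the mean are exact opposites. Pairs of unlike number therefore mirrored these values, at -0.065 and -0.095, and the check cannot decide on pairing. With the number as a replicate block, limma called 18 genes higher and 4 lower, and Myl2 passed the test (4.21, limma adjusted p = 0.0111). Myh2 turned to 0.49. The paired mean differences of the Myh2 share and of the log2 ratio of Myh1 to Myh2 were 1.29 percentage points and -0.40. WT control replicate 3 shares its number with no other library, so these estimates repeat those without it and are no separate check. With 2 libraries on one side, the 95% intervals of the members span between 1.76-fold and 7.61-fold from end to end. Changes inside an interval are not excluded here, and its width is not a limit of detection. The cause of these shifts was not tested.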

Other observations

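The class II myosins of other cells gave no call between the groups. Myh9, the nonmuscle myosin 2A of many cell types, was at 11.3, 13.0, and 12.2 FPKM in the WT controls and at 10.7 and 12.8 FPKM in the libraries labelled skmNrip1-/-, and Myh11, the smooth muscle myosin of vessel walls, at 7.12, 7.47, and 9.001 FPKM against 7.29 and 7.05 FPKM. Of 5 listed, 4 were tested, with a median log2 difference of -0.09, and with limma 0 were called and 0 passed an unadjusted p of 0.05. Myh10 was lowest at -0.29, with groups apart at 3.804, 4.56, and 5.06 FPKM against 3.64 and 3.61 FPKM, and Myh14 was highest at 0.02. Myh15 was at 0.0758 FPKM or less in every library and was not tested, with groups apart above.

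None of the markers of blood cells was called. The 5 red cell genes summed to 764, 661, and 511 FPKM in the WT controls and to 996 and 827 FPKM in the libraries labelled skmNrip1-/-, with a median log2 difference of 0.51 and groups apart above for 4 of 5, where 15.8% of all genes tested were apart in this direction. With limma 0 were called and 3 were higher at an unadjusted p under 0.05, where 798 of the 12148 genes tested were higher and 647 lower. Sums for 4 endothelial markers were 67.1 to 76.6 FPKM against 63.2 and 71.3, for 5 fat cell markers 7.41 to 13.9 against 11.9 and 11.9, for 5 Schwann cell markers 27.0 to 40.2 against 34.0 and 23.9, for 4 macrophage markers 3.24 to 7.31 against 5.32 and 5.66, and for 5 tendon and fibroblast markers 46.7 to 75.3 against 45.3 and 134 FPKM. In these 5 lists limma called 0 genes, with 0 higher and 1 lower at an unadjusted p under 0.05, the tendon factor Scx. The part of these cells in the myosin values was not tested.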
